A study of Mus musculus with 4 samples.

Results

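The IL-1 family and inflammasome set described here held 10 genes, chosen by name from the 32285 genes of each count table and followed across neutrophil stages, monocytes, macrophages and all other cell classes of mouse liver. All 10 genes were found in the tables. They were the ligands Il1a, Il1b, Il1f9 and Il18, the antagonist and receptors Il1rn, Il1r2 and Il1rap, and the inflammasome genes Nlrp3, Pycard and Casp1. IL-1α and IL-1β act on the same receptor and set off inflammatory gene expression through MyD88. IL-1β and IL-18 are made as inactive precursors, which caspase-1 cuts after NLRP3 and the adaptor ASC have assembled into an inflammasome. The pathway has its own brakes: the receptor antagonist occupies the receptor without signalling, and the decoy receptor binds IL-1 without passing a signal on. Neutrophils, monocytes and Kupffer cells, the resident macrophages of the liver, are known sources of these proteins.

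Single liver cells of male mice were profiled by droplet 3′ RNA sequencing, in which each captured RNA molecule is counted once by its unique molecular identifier (UMI). The 4 groups were fetal offspring at embryonic day E18.5 of control mothers (Ctrl) or of mothers with intrauterine hyperglycemia (IHG), and adult offspring at 8 weeks of the same 2 kinds of mother. Each group was 1 library, pooled from 3 pregnant mice for the fetuses and from 3 animals for the adults. Strain, diet and the way the hyperglycemia was brought about are not given in the sources used here. The design asks how offspring of the 2 kinds of mother differ at each age. With 1 library per group no difference between IHG and Ctrl has a replicate check, no test was possible and no p-value is given. Every interval below is a 95% interval that covers counting error only.

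After filtering, 7594, 7925, 4951 and 6500 cells remained in the libraries, in the order fetal Ctrl and IHG, then adult Ctrl and IHG. Their medians were 7402.5, 9709, 2514 and 2220.5 UMIs per cell. Any 2 libraries shared 8 to 26 cell barcodes, at most 0.38% of the smaller one. Before filtering, haemoglobin RNA made up 35.4% of all UMIs in fetal Ctrl and 20.4% in fetal IHG, and the 95th percentile of mitochondrial RNA per cell was 23.8% and 6.43%. Cells were clustered without the 10 genes, and clusters were named from marker genes, so each class is called "like" its name. The fetal libraries gave promyelocyte-like cells (192 Ctrl and 760 IHG), myelocyte-like cells (658 and 1541), mature neutrophil-like cells (290 and 507) and monocyte-like cells (235 and 362). The mature class was led by Cxcl2, Retnlg and Asprv1, and Il1r2 itself was among its leading genes at both ages. A macrophage-like cluster led by C1qb, C1qc and C1qa held 352 IHG cells and 6 Ctrl cells, too few for a comparison. A shallow cluster of 158 Ctrl and 42 IHG cells, with a median of 2130 UMIs and with Ly6g, Il1rn and Il1f9 among its leading genes, stayed unnamed and enters no class. A monocyte-like cluster of 27 Ctrl and 49 IHG cells was led by MHC class II genes, with no monocyte marker among its leading genes. The adult libraries gave mature neutrophil-like cells (188 and 107) and monocyte-like cells (102 and 146), and no cluster was named macrophage or hepatocyte. Hepatocyte markers summed to 551 CPM over all adult Ctrl cells and 230 CPM over all adult IHG cells.

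Levels are given as CPM, the UMIs of a gene per 1000000 UMIs of its class. They come from the 3′ ends of transcripts and are not per length, so they are compared between cells and libraries and not between genes. Differences are log2 ratios of IHG over Ctrl, and a gene is counted as 2-fold higher or lower only with at least 20 UMIs over both libraries. Across cells, the 10 genes differed in where they were found. Il1rn, Il1f9 and Il1r2 had their highest level in mature neutrophil-like cells in each of the 4 libraries. Il1b and Nlrp3 were high in mature neutrophil-like cells too, but also in monocyte-like, basophil- or mast-like, fetal IHG macrophage-like and adult dendritic-like cells. Il1a and Il18 were highest in the macrophage-like cells of fetal IHG. Pycard was found in nearly every class.

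**Figure D1:**
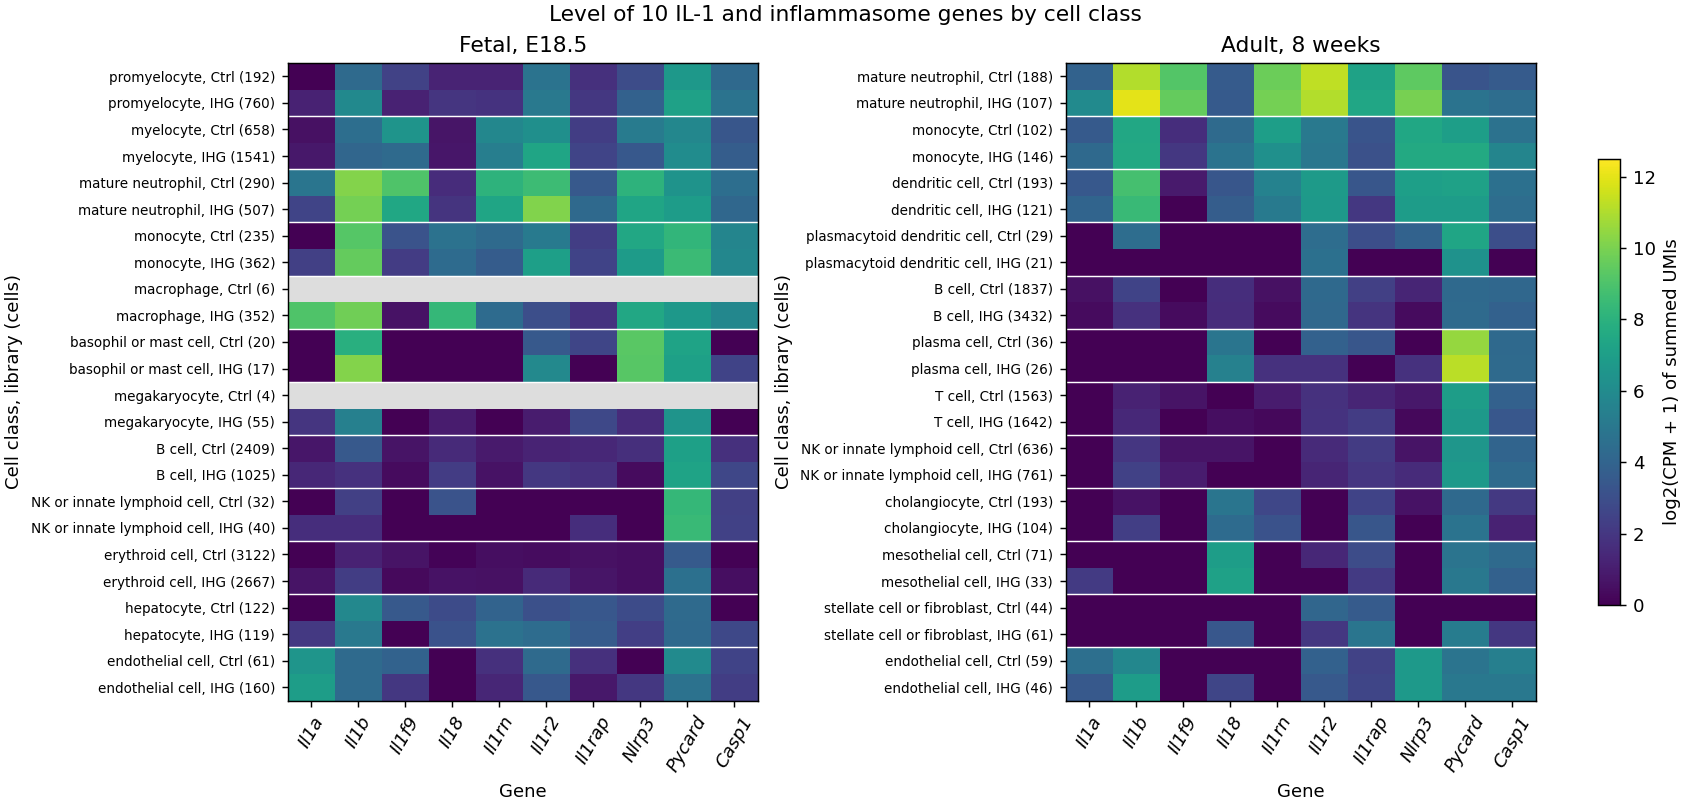
Level of the 10 genes (columns) in each cell class and library (rows, with the number of cells), as log2(CPM + 1) of summed UMIs, fetal on the left and adult on the right. Grey rows hold fewer than 10 cells. Il1b and Il1r2 are each brightest in adult mature neutrophil-like cells, while Pycard is present in most rows and brightest in adult plasma-like cells.

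Il1b, which encodes the precursor of IL-1β, lies on chromosome 2 (mm10, 129364570 to 129371139, minus strand), 54.6 kb from Il1a (129299610 to 129309972, minus strand). Il1f9, which encodes IL-36γ, lies on the same chromosome (24186476 to 24193568, plus strand), 143.3 kb from Il1rn (24336853 to 24351494, plus strand). Il18 is on chromosome 9 (50554827 to 50581840, plus strand). The 250 bases before the RefSeq start (GRCm38.p6) are shown for 4 genes. Il1a and Il1b are neighbours on the chromosome, Il1f9 was in the adult nearly limited to neutrophil-like cells and Pycard was found in most classes.
Il1a (chr2:129309973-129310222, minus strand): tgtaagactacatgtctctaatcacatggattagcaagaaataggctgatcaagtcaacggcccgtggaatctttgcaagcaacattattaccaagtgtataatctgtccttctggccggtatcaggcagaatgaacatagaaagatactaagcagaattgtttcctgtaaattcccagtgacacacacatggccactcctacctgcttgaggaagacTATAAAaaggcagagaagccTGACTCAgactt
Il1b (chr2:129371140-129371389, minus strand): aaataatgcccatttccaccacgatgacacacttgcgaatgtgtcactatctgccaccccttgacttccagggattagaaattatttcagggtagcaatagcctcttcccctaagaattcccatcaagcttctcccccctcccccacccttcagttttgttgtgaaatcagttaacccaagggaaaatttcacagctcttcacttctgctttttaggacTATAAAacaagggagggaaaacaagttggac
Il1f9 (chr2:24186226-24186475, plus strand): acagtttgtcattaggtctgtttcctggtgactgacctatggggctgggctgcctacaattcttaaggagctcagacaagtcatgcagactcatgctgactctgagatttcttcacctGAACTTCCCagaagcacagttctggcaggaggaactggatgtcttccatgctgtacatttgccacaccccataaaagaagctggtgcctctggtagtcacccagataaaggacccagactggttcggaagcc
Pycard (chr7:127993868-127994117, minus strand): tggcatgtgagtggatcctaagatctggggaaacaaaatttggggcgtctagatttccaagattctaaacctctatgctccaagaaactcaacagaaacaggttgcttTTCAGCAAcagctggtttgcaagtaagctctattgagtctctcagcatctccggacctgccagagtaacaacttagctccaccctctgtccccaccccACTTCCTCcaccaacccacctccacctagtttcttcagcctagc
Capitals mark matches, on either strand, to 5 motifs: a TATA box (TATAAA), an AP-1 site (TGANTCA), a PU.1 site (GAGGAAGT), a C/EBP site (TTNNGCAA) and a kappaB core (GGGNNNTTC, which leaves off the last base of the usual motif). Il1a and Il1b each held a TATA match close to the start, beginning 32 and 31 bases before it, and Il1a an AP-1 match 12 bases before it. Pycard held a PU.1 and a C/EBP match, and Il1f9 a match to the shortened kappaB core. This shorter form was set after a longer one had been searched, and it is the more common of the 2. No marked matches overlapped one another. Among all 32851 promoter windows of this length, 12.4% held the TATA motif, 6.75% AP-1, 2.44% PU.1, 9.56% C/EBP and 11.8% the kappaB core. All 10 genes had a window in the RefSeq table, 13 windows in all. The windows of Casp1, Il1r2, Il1rap and Nlrp3, not shown, held no match to the 5 motifs.

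Il1b was low in fetal promyelocyte-like and myelocyte-like cells and high in mature neutrophil-like cells. In fetal Ctrl its level was 19.3 CPM in promyelocyte-like, 21.9 in myelocyte-like and 1143 in mature neutrophil-like cells. In fetal IHG the levels were 60.4, 16.2 and 959 CPM. The step from myelocyte-like to mature cells was 5.70 on the log2 scale in Ctrl (5.45 to 5.97) and 5.89 in IHG (5.70 to 6.09), the widest of the 5 myeloid genes in both libraries. An Il1b UMI was found in 73.8% of Ctrl and 65.5% of IHG mature cells, at medians of 5184 and 5146 UMIs. Erythroid-like cells, which should lack it, gave 1.76% and 5.74% at medians of 12932.5 and 17476 UMIs.

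In fetal mature neutrophil-like cells Il1b had 1753 UMIs in Ctrl and 2556 in IHG, a log2 ratio of -0.25 (-0.34 to -0.16). This sign did not hold across ways of choosing the cells. The ratio was 0.46 with the unnamed shallow neutrophil cluster added, whose Ctrl cells had 61.4 CPM of Il1b. A single cell held 53.5% of those Ctrl Il1b UMIs. Haemoglobin RNA summed to 324284 CPM in the cluster's Ctrl cells. The cluster brought 1157293 UMIs to the Ctrl total and 84946 to the IHG total. The Il1b ratio was -0.59 with a limit of 10% mitochondrial RNA and -1.43 when each library was clustered by itself. Monocyte-like cells had 586 CPM in Ctrl and 753 in IHG, a ratio of 0.36 (0.26 to 0.46). Haemoglobin RNA summed to 75054 CPM in these Ctrl monocyte-like cells and 13268 CPM in IHG, and immediate-early genes to 4408 and 2425 CPM. Without cells over 5% haemoglobin the ratio was 0.19, and without the MHC class II cluster 0.18. The median ratio of all genes was 0.21 in the whole monocyte-like class. It was 0.22 without the MHC class II cluster, so Il1b did not stand above the typical gene there. The macrophage-like cells of fetal IHG had 886 CPM (845 to 929), beside 959 CPM in the IHG mature neutrophil-like cells.

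Among promyelocyte-like cells the Il1b ratio was 1.63 (1.20 to 2.13). The level sat in few cells: the tenth of cells with most Il1b UMIs held 92.5% of them in IHG and 100% in Ctrl. A single Ctrl cell held 29 of the 42 Ctrl UMIs, 69.0%, so the Ctrl level rests largely on that cell. Without it the Ctrl level would be lower and the ratio higher. Most Il1b UMIs also sat in 1 of the 2 clusters, with Ctla2a, Mpo, Ccl4, Hmga2 and Cd34 among its leading genes. The Il1b level there was 49.4 CPM in Ctrl and 107 in IHG, against 0.744 and 9.0 CPM in the cluster led by Elane, Prtn3 and Ms4a3. Myelocyte markers summed to 843 CPM in Ctrl and 1402 in IHG in the first cluster, against 49327 and 39298 in the second. Monocyte markers summed to 265 and 455 CPM, against 51.3 and 155. Whether the first cluster is a neutrophil stage was not tested, so the promyelocyte-like class may mix cell types. Basophil- or mast-like cells, only 20 in Ctrl and 17 in IHG, had 235 CPM (172 to 314) and 1156 CPM (1015 to 1311).

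Adult mature neutrophil-like cells held the highest Il1b level of any class, with 752 UMIs and 2112 CPM in Ctrl and 785 UMIs and 4101 CPM in IHG. The IHG library was higher by 0.96 (0.81 to 1.10), just below 2-fold. It was past 2-fold with median-of-ratios scaling, at 1.03, and with doublets kept, at 1.10, and was 0.75 after thinning. An Il1b UMI was found in 61.2% of Ctrl and 77.6% of IHG cells, and in 51.2% and 73.2% of cells thinned to 1000 UMIs, leaving out 18 Ctrl and 10 IHG shallower cells. T-like cells, at medians of 2901 and 2853.5 UMIs against 1707 and 1734, gave 0.448% and 0.548%. Myelocyte markers summed to 9955 CPM in Ctrl and 2382 in IHG in these neutrophil-like cells, with 1 of 6 measured markers higher and 5 lower in IHG. Mitochondrial RNA summed to 11992 and 5255 CPM. Immediate-early genes summed to 9904 CPM in Ctrl and 11974 in IHG, with 8 of 9 higher and 1 lower in IHG. What part these differences have in the Il1b ratio was not tested. With cells holding a Camp, Ltf or Ngp UMI left out, the Il1b ratio was 0.96 as well.

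Adult monocyte-like cells had 177 CPM of Il1b in Ctrl and 186 in IHG, a ratio of 0.07 (-0.35 to 0.49), so no difference was detectable at this depth. Adult dendritic-like cells had 455 and 358 CPM, a ratio of -0.34 (-0.58 to -0.12). Dendritic-like cells, plasmacytoid ones aside, held 36.4% of the Il1b UMIs of adult Ctrl and 19.7% of those of adult IHG, and mature neutrophil-like cells held 54.1% and 65.1%. The share of a class moves with how many of its cells were captured.

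Il1a, whose product is active without caspase-1, was spread differently in the 2 fetal libraries. In fetal IHG the macrophage-like cells held 1055 of its 1322 UMIs, 79.8%, at 536 CPM (504 to 569), while fetal Ctrl had 95 UMIs in all, with 43 in mature neutrophil-like cells, 38 in endothelial-like cells and 0 in its 6 macrophage-like cells. Endothelial-like cells held Il1a in both fetal libraries, at 90.5 CPM in Ctrl (64.0 to 124) and 122 CPM in IHG (103 to 142). In fetal mature neutrophil-like cells the direction was the other way, with 43 UMIs and 28.0 CPM in Ctrl and 13 UMIs and 4.88 CPM in IHG. That ratio was -2.48 (-3.54 to -1.60). Fetal monocyte-like cells had 0 UMIs in Ctrl, which allows up to 3 counts, and 17 in IHG. Adult mature neutrophil-like cells had 5 UMIs in Ctrl and 12 in IHG.

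In the adult Il1f9 was nearly limited to neutrophil-like cells. Mature neutrophil-like cells held 97.1% of its 209 UMIs in adult Ctrl and 95.9% of its 148 UMIs in adult IHG. Among fetal cells it was higher at each later stage, going from 4.60 to 88.8 to 538 CPM over the 3 stages in Ctrl, and from 1.26 to 19.0 to 175 CPM in IHG. IHG was lower at each stage, by ratios of -1.89 (-3.12 to -0.56), -2.22 (-2.44 to -2.01) and -1.62 (-1.79 to -1.46). With the unnamed shallow cluster added, the mature ratio was -0.93 (-1.09 to -0.77), no longer past 2-fold. An Il1f9 UMI was found in 80.0% of Ctrl and 51.7% of IHG mature cells, against 0.833% and 0.450% of erythroid-like cells. In adult mature cells the levels were 570.2 and 742 CPM, a ratio of 0.38 (0.06 to 0.70), in the opposite direction.

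Il18 had few UMIs in neutrophils, with 3 in Ctrl and 7 in IHG among fetal mature cells. The fetal IHG macrophage-like cells held 638 of 866 UMIs, 73.7%, at 324 CPM (299 to 350). The 6 fetal Ctrl macrophage-like cells held 4 UMIs. Fetal monocyte-like cells had 25.3 CPM in Ctrl and 19.7 in IHG, a ratio of -0.37 (-0.90 to 0.19). In the adult, without a macrophage cluster, the highest level was in mesothelial-like cells, which line the liver surface, at 122 CPM in Ctrl (96.0 to 153) and 143 in IHG (103 to 194). Cholangiocyte-like cells, of the bile ducts, had 28.1 and 19.6 CPM. Plasma-like cells had 27.7 CPM (14.3 to 48.4) and 43.5 CPM (25.8 to 68.7), so those 2 classes overlapped within counting error.

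The macrophage-like cells of fetal IHG carried 3 ligands together. Among the 146 cells with an Il1b UMI, 76.7% also had Il1a, 66.4% Il18 and 50% Nlrp3. The 206 cells without one gave 29.1%, 44.2% and 8.25%. The depth differed as well, with a median of 7803 UMIs in the first set and 1134.5 in the second, and its part in these shares was not tested. Their Il1rn level was low, at 19.8 CPM. Il18bp, the secreted protein that binds and blocks IL-18, had 998 UMIs and 507 CPM in the same cells.

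**Figure D2:**
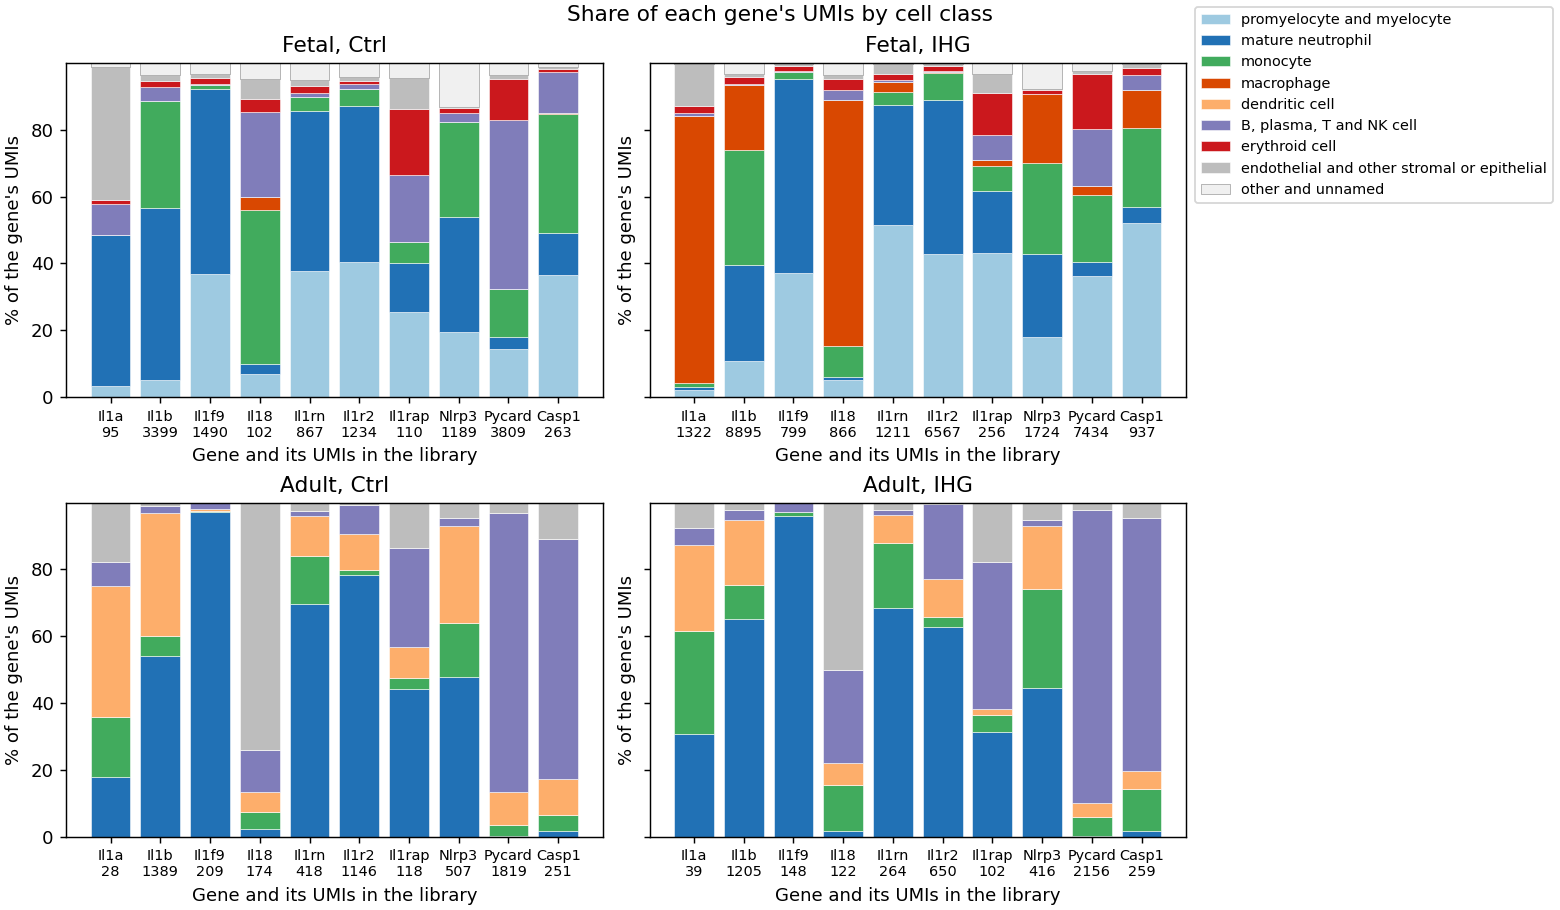
Share of each gene's UMIs (vertical axis, percent) held by each group of cell classes in the 4 libraries, with the gene's UMIs in the library under its name. Macrophage-like cells hold most Il1a and Il18 in fetal IHG, and mature neutrophil-like cells hold nearly all Il1f9 in both adult libraries.

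Il1rn encodes the receptor antagonist. In fetal Ctrl it went from 1.38 to 53.6 to 271 CPM over the 3 neutrophil stages, and in fetal IHG from 2.51 to 40.1 to 163 CPM. IHG was lower by -0.42 (-0.61 to -0.22) in myelocyte-like and -0.73 (-0.93 to -0.53) in mature cells. With the unnamed shallow cluster added, the mature ratio was -0.10. Adult mature cells had 817 CPM in Ctrl and 946 in IHG, a ratio of 0.21 (-0.07 to 0.48). Adult monocyte-like cells had 60 and 51 UMIs, or 128 and 77.7 CPM, a ratio of -0.72 (-1.29 to -0.16). After thinning to 1000 UMIs the sign turned, at 0.32, and 1 cell held 13 of the 60 Ctrl UMIs. Macrophage markers summed to 921 CPM in these Ctrl cells and 111 in IHG, with all 4 measured of 9 lower in IHG and 5 at 0 in both. Without cells holding a C1q UMI the ratio was -0.98.

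Il1r2, the decoy receptor on chromosome 1 (mm10, 40074079 to 40125231, plus strand), was the gene most clearly higher in fetal IHG. Mature neutrophil-like cells had 574 UMIs and 374 CPM in Ctrl and 3028 UMIs and 1136 CPM in IHG. The ratio was 1.60 (1.47 to 1.73), and 94.5% of IHG cells held an Il1r2 UMI against 72.8% of Ctrl cells. After thinning to 1000 UMIs the shares were 63.3% and 33.0%. Erythroid-like cells gave 0.448% in Ctrl and 3.45% in IHG. Myelocyte-like cells had 73.0 and 164 CPM, a ratio of 1.17 (1.02 to 1.32), and it was higher in IHG in both myelocyte-like clusters, at 103 and 254 CPM in the one led by Ly6g and 40.3 and 82.6 CPM in the one led by Chil3. Monocyte-like cells had 34.0 CPM in Ctrl and 133 in IHG, a ratio of 1.96 (1.59 to 2.37). Promyelocyte-like cells had 26.2 and 31.7 CPM, with an interval of the ratio that included 0 (-0.13 to 0.70). Their 2 clusters were unlike. The one led by Elane had 52 Ctrl and 226 IHG Il1r2 UMIs, out of 1343738 and 5665396 UMIs in all. The one led by Ctla2a had 5 and 152, out of 830575 and 6272024, and its 5 Ctrl UMIs came from 2 cells.

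Across the alternatives for choosing, scaling and filtering cells, the Il1r2 ratio of fetal mature cells ranged from 0.90 to 2.26 and never changed sign. The lowest value came from clustering each library by itself, the highest from adding the unnamed cluster. That addition also raised the ratios of Il1b, Il1f9, Il1rn and Nlrp3. Macrophage markers summed to 2.61 CPM in Ctrl mature neutrophil-like cells and 49.2 in IHG, with 3 of 9 measured, all higher in IHG, and hepatocyte markers to 90.6 and 335 CPM. The IHG macrophage-like cells had 7.11 CPM of Il1r2. What part these marker differences have in the Il1r2 difference was not tested.

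In the adult the order was the other way. Mature neutrophil-like cells had 899 UMIs and 2525 CPM of Il1r2 in Ctrl and 408 UMIs and 2131 CPM in IHG, a ratio of -0.24 (-0.42 to -0.07). Adult cells exceeded fetal ones in both kinds of mother, by 2.75 (2.60 to 2.91) in Ctrl and 0.91 (0.75 to 1.06) in IHG. The libraries of the 2 ages also differ in depth and were made from tissue handled differently, as only the adult livers were perfused.

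The same comparison of ages for other genes gave 0.89 (0.76 to 1.01) in Ctrl and 2.10 (1.98 to 2.21) in IHG for Il1b, and 1.60 (1.37 to 1.82) and 2.54 (2.28 to 2.79) for Il1rn. For Nlrp3 it gave 1.35 (1.11 to 1.58) and 2.59 (2.33 to 2.84). The interval for Il1f9 included 0 in Ctrl, at 0.09 (-0.15 to 0.31), and the gene was higher in the adult in IHG, at 2.09 (1.80 to 2.36). Adult neutrophil-like cells thus had higher CPM of each of these genes than fetal ones, apart from Il1f9 in Ctrl. Myelocyte markers summed to 34811 and 31606 CPM in fetal Ctrl and IHG mature cells, and to 9955 and 2382 CPM in adult ones. Immediate-early genes summed to 1514 and 1320 CPM in the fetal cells and to 9904 and 11974 CPM in the adult ones. What part stage or activation has in these age differences was not tested.

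Il1rap encodes the accessory chain that the signalling receptor needs. It was sparse, with 16 and 48 UMIs in fetal mature cells, or 10.4 and 18.0 CPM, and a ratio of 0.76 (-0.05 to 1.70). Adult mature cells had 146 and 167 CPM, a ratio of 0.20 (-0.49 to 0.86). Adult levels exceeded fetal ones by 3.78 in Ctrl (2.98 to 4.72) and 3.22 in IHG (2.52 to 3.89), and IHG and Ctrl at neither age gave a difference detectable at this depth. The signalling receptor Il1r1 had 0 UMIs in mature neutrophil-like cells of all 4 libraries.

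The number of Il1b UMIs for each Il1r2 UMI sets the ligand beside its decoy within the same cells. These are ratios of 3′ tags, read only between libraries. In fetal mature neutrophil-like cells the ratio was 3.05 (2.78 to 3.36) in Ctrl and 0.844 (0.801 to 0.890) in IHG. In adult mature cells it was 0.836 (0.758 to 0.923) in Ctrl and 1.92 (1.70 to 2.17) in IHG, the reverse order. Il1b over Il1rn gave 4.22 (3.79 to 4.71) and 5.88 (5.31 to 6.52) in the fetal cells and 2.58 (2.25 to 2.97) and 4.34 (3.68 to 5.13) in the adult cells, higher in IHG at both ages.

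**Figure D3:**
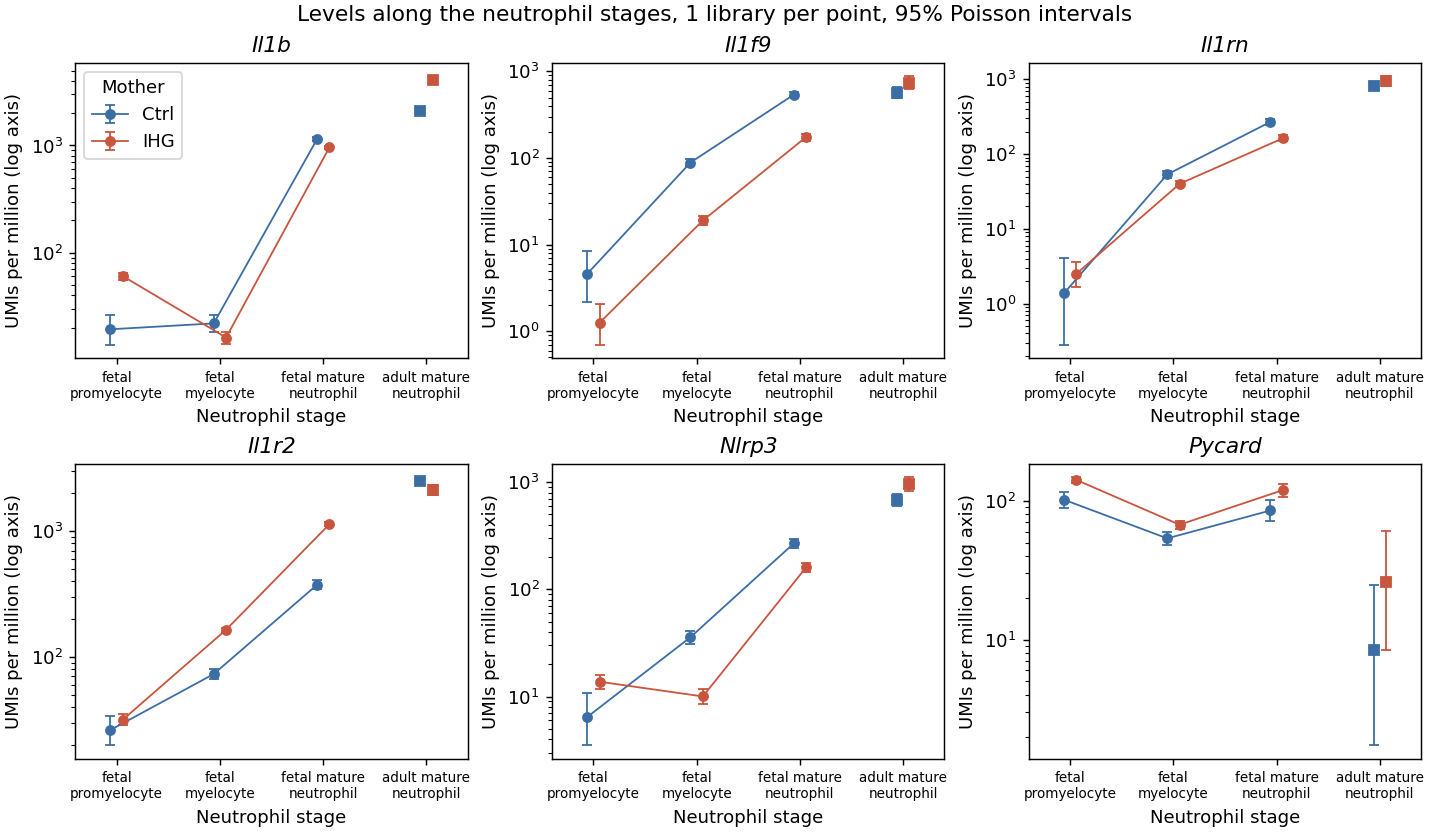
Level of 6 genes (CPM, log axis) over the 3 fetal neutrophil stages and in adult mature neutrophil-like cells, with 1 library per point, Ctrl in blue, IHG in red and 95% Poisson intervals. Il1r2 is higher and Il1f9 lower in IHG in fetal myelocyte-like and mature cells, and Pycard is lower in adult than in fetal mature cells.

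Nlrp3, the sensor (chromosome 11, 59541568 to 59566956, plus strand), followed Il1b more closely than any other gene of the set. Over 35 sums of a class in a library with at least 50 cells, the Pearson correlation of their log2(CPM + 1) was 0.94. Those sums share libraries and depth. In fetal cells Nlrp3 was lower in IHG in myelocyte-like cells, with 217 and 148 UMIs or 35.8 and 10.0 CPM, a ratio of -1.83 (-2.15 to -1.53). Mature cells had 268 and 161 CPM, a ratio of -0.74 (-0.94 to -0.54), and monocyte-like cells 182 and 116 CPM, a ratio of -0.66 (-0.86 to -0.45). With the unnamed cluster added, the mature ratio was -0.06. Promyelocyte-like cells, which pool 2 unlike clusters, went the other way, at 6.44 and 13.7 CPM.

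Basophil- or mast-like cells had the highest Nlrp3 level of the fetal classes, at 634 CPM in Ctrl (527 to 756) and 611 in IHG (510 to 727), a ratio of -0.05 (-0.42 to 0.32). A UMI of it was found in 90.0% and 88.2% of these few cells, against 0.577% and 0.675% of erythroid-like cells. In the adult it was highest in mature neutrophil-like cells, with 683 CPM in Ctrl and 966 in IHG, a ratio of 0.50 (0.22 to 0.78). Adult endothelial-like cells, 59 in Ctrl and 46 in IHG, held Nlrp3 as well, at 105 CPM (66.7 to 158) and 108 CPM (66.7 to 165), whereas fetal ones had 0 and 4 UMIs. Adult monocyte-like cells had 173 and 189 CPM, a ratio of 0.12 (-0.29 to 0.55), and adult dendritic-like cells 131 and 118 CPM, a ratio of -0.15 (-0.57 to 0.25). Neither class gave a difference detectable at this depth. Adult mature cells with an Il1b UMI held Nlrp3 more often than those without one, in 64.3% against 41.1% in Ctrl and in 75.9% against 54.2% in IHG.

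Pycard encodes the adaptor ASC (chromosome 7, 127989708 to 127993867, minus strand). It was broad in the fetal liver, at 102 to 142 CPM in promyelocyte-like, 53.7 to 67.4 in myelocyte-like, 295 to 369 in monocyte-like and 139 to 150 in B-like cells. Fetal mature neutrophil-like cells had 85.4 CPM in Ctrl and 120 in IHG. IHG was slightly higher in the myeloid classes, with ratios of 0.47 (0.27 to 0.68), 0.33 (0.15 to 0.51), 0.48 (0.19 to 0.79) and 0.32 (0.18 to 0.46) in promyelocyte-like, myelocyte-like, mature neutrophil-like and monocyte-like cells. All-gene medians in these classes lay between 0.21 and 0.39, so Pycard stood little above them. Adult mature neutrophil-like cells held 3 Pycard UMIs in Ctrl and 5 in IHG, or 8.43 and 26.1 CPM, lower than fetal ones by 3.12 (5.64 to 1.76) and 2.06 (3.83 to 0.96). Adult monocyte-like cells had 126 and 189 CPM, a ratio of 0.58 (0.13 to 1.06). T-like cells had 122 and 105 CPM, so the low level was not shared by all adult cells. The 36 and 26 adult plasma-like cells had 1453 and 2365 CPM, the highest level of Pycard in any class, and a ratio of 0.70 (0.56 to 0.85). B-like cells of the same libraries had 77 and 136 UMIs from 1837 and 3432 cells.

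Casp1, the protease (chromosome 9, 5298517 to 5307265, plus strand), was low in neutrophils, with 33 and 45 UMIs in fetal mature cells and a ratio of -0.35 (-1.03 to 0.34). Fetal monocyte-like cells had 50.7 and 55.0 CPM, a ratio of 0.11 (-0.24 to 0.48). Adult monocyte-like cells had 12 and 33 UMIs, or 25.6 and 50.3 CPM, a ratio of 0.93 (-0.02 to 2.06). None of these 3 intervals excluded 0. Promyelocyte-like cells had 40 and 313 UMIs, or 18.4 and 26.2 CPM, and a ratio of 0.50 (0.03 to 1.02).

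Counted as a set, the 10 genes were mixed in direction. In fetal mature neutrophil-like cells 9 were measured, 1 was 2-fold higher in IHG and 2 were 2-fold lower, beside 6.57% of 5643 genes higher and 2.71% lower. The median of the 9 was -0.35 and that of all genes 0.22. In myelocyte-like cells 1 of 8 was higher and 2 were lower (all genes 4.52% higher and 2.67% lower), with a median of -0.05 beside 0.22. In promyelocyte-like cells 2 of 9 were higher and 1 lower (all genes 13.8% higher and 3.37% lower), with a median of 0.50 beside 0.39. In fetal monocyte-like cells 1 of 9 was higher and 1 lower (all genes 5.44% higher and 2.91% lower), with a median of 0.11 beside 0.21.

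In adult mature neutrophil-like cells 0 of 6 measured genes passed 2-fold (all genes 1.94% higher and 6.51% lower), with a median of 0.30 beside -0.06. In adult monocyte-like cells 0 of 7 did (all genes 3.30% higher and 2.80% lower), with a median of 0.12 beside 0.06.

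**Figure D4:**
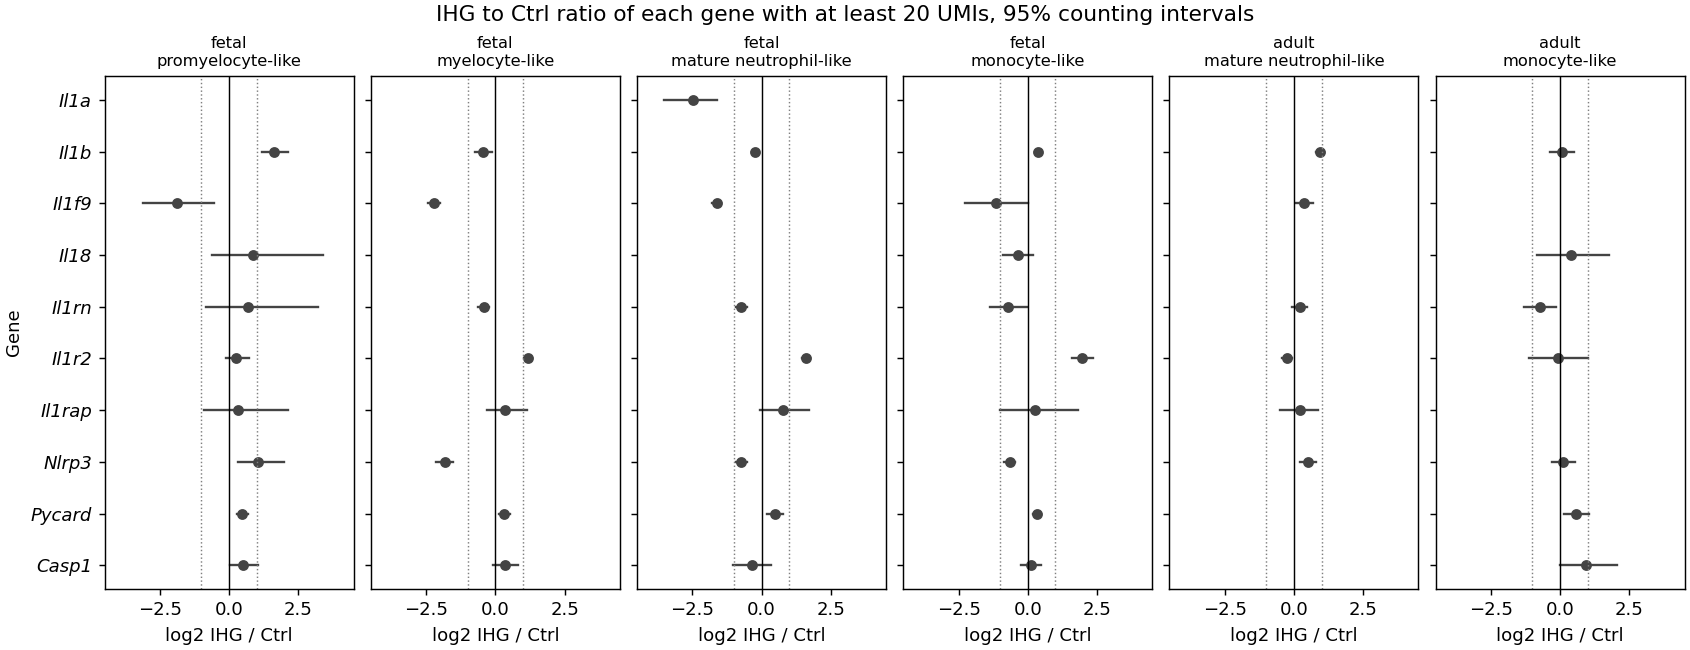
log2 ratio of IHG over Ctrl (horizontal axis) of each gene with at least 20 UMIs, with 95% counting intervals, in 6 cell classes; dotted lines mark 2-fold. Il1r2 lies right of the dotted line in fetal myelocyte-like, mature neutrophil-like and monocyte-like cells and just left of 0 in adult mature neutrophil-like cells.

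The other genes of the pathway were read from 4 lists. Of 16 other inflammasome genes, 8 were measured in fetal mature neutrophil-like cells, and 2 were 2-fold lower and 0 higher in IHG, with a median of -0.44. Over all genes of that class 6.57% were higher and 2.71% lower, with a median of 0.22. In fetal myelocyte-like cells 0 of 11 were higher and 3 lower (all genes 4.52% higher and 2.67% lower), with a median of -0.02 beside 0.22. In promyelocyte-like cells 3 of 14 were higher and 2 lower (all genes 13.8% higher and 3.37% lower), with a median of 0.63 beside 0.39. In fetal monocyte-like cells 0 of 14 passed 2-fold (all genes 5.44% higher and 2.91% lower), with a median of -0.12 beside 0.21. In the fetal mature cells the 2 were Casp4, the protease of the non-canonical inflammasome, at 70.4 and 21.8 CPM (-1.69, -2.18 to -1.22), and the DNA sensor Aim2, at 8.47 and 2.63 CPM (-1.64, -3.26 to -0.26). Casp4 was also lower in IHG in myelocyte-like cells, at 28.7 and 8.67 CPM (-1.73, -2.07 to -1.39). Ninj1, whose protein ruptures the membrane of dying cells, had 126 and 70.9 CPM in fetal mature cells, a ratio of -0.83 (-1.12 to -0.53), and 1191 and 1034 CPM in adult ones. Txnip, whose protein binds NLRP3, had 252 and 265 CPM in fetal mature cells.

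Of 10 receptor signalling genes, 7 were measured in fetal mature cells and 0 passed 2-fold, with a median of -0.54 beside 0.22 for all genes. The adaptor Myd88 had 80.8 and 54.4 CPM (-0.57, -0.93 to -0.21), the kinase Irak2 39.8 and 24.8 CPM (-0.68, -1.21 to -0.16) and Irak3, which restrains the pathway, 40.4 and 26.3 CPM (-0.62, -1.14 to -0.10). Tab2, an adaptor of the kinase TAK1, had 28.7 and 29.3 CPM. In adult mature cells 1 of 4 measured genes was 2-fold higher, beside 1.94% of all genes, namely Myd88, which rested on 17 Ctrl and 22 IHG UMIs (1.26, 0.29 to 2.27). Of 6 other receptors, the IL-18 receptor chains Il18rap and Il18r1 were measured in fetal mature cells, at 102 and 123 CPM for Il18rap. In fetal monocyte-like cells Il18rap had 16 and 108 UMIs, or 8.63 and 26.6 CPM, a ratio of 1.59 (0.86 to 2.48). Of 6 other ligands and binding proteins, Il18bp alone was measured in fetal mature cells, at 8.47 and 14.3 CPM. Il1f6, which encodes IL-36α, had 6 UMIs in fetal Ctrl myelocyte-like cells and 0 in IHG.

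The genes most like 4 members were ranked by Pearson correlation of log2(CPM + 1) over the same 35 class-by-library sums, among 7091 genes that reached 50 CPM in 1 of them. For Il1b they were Csf2rb (0.92), Lrrc25, Nfam1, Ccl6 and Ptafr. For Il1rn they were Cd300lb (0.94), Cd300ld, 1600010M07Rik, Rasgrp4 and Fgr. Il18 had lower values, with Csf1r (0.79), Met, Cadm1, Ifnar2 and Ctsz. Pycard gave Abracl (0.87), Arpc4, H2afy, Tifab and Mcts1, and none of these was shared with the other 3 members.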

How the data were processed

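The deposited files are Cell Ranger count matrices of UMIs, version 5.0.0 per the file headers, and the submitters' processing notes name mm10, Cell Ranger and Seurat. The 10 genes and all other lists were chosen with earlier results of these data known. Cells under 300 genes or over 25% mitochondrial UMIs were left out. Scrublet doublets were removed by its own threshold in the fetal libraries, and at the 95th percentile of its score in the adult ones, where that threshold marked 0% and 0.0147%. Cells of each age were clustered together in scanpy 1.11.5 (2000 variable genes without the 10 genes, other pathway, immediate-early, mitochondrial and ribosomal genes; 30 components; 15 neighbours; Leiden resolution 1), and clusters were named from marker lists. UMIs were summed per class and library. Levels have exact Poisson intervals, shares of cells exact binomial ones, and ratios exact conditional Poisson ones with 0.5 added to each count for the point value. A class median or count uses genes with at least 20 UMIs over both libraries. A count of 0 allows up to 3 counts. The ratio and its interval were run on simulated counts drawn from the same Poisson model that the interval assumes. That checks the calculation only, as the simulation held no variation between cells, animals or libraries. Total UMIs per library were 77874423 and 105382968 in the fetal Ctrl and IHG libraries and 17987173 and 19366065 in the adult ones. The scaling, UMI minimum, thinning, mitochondrial limit, doublets and clustering were each varied, and 5 further alternatives were chosen after seeing the data: adding the unnamed neutrophil cluster, and leaving out cells over 5% haemoglobin, the MHC class II cluster, cells with a Camp, Ltf or Ngp UMI, or cells with a C1q UMI. All 10 genes are named. Of each other list up to 4 genes with the highest CPM in a neutrophil, monocyte or macrophage class are named, and the genes most like Il1b, Il1rn, Il18 and Pycard are the 5 with the highest correlation.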

Additional observations from a re-analysis of the deposited data

Results flagged for a closer look

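In mature neutrophil-like cells 4 of the genes had log2 ratios of IHG over Ctrl with opposite signs in the fetal and the adult libraries, with intervals that excluded 0 at both ages. The difference between the ages was not tested, since each group was 1 library. Il1r2 had a ratio of 1.60 in the fetus and -0.24 in the adult, a difference of adult minus fetal of -1.85. Il1f9 went from -1.62 to 0.38, a difference of 2.00. Nlrp3 went from -0.74 to 0.50, a difference of 1.24. Il1b went from -0.25 to 0.96, a difference of 1.21. The fetal sign of Il1b turned with the unnamed neutrophil cluster added, at 0.46, and the fetal ratios of Nlrp3 and Il1f9 were then -0.06 and -0.93. The fetal cells came from pooled litters and the adult cells from other animals, with 5184 and 5146 median UMIs per fetal mature cell and 1707 and 1734 per adult one.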

How the results depend on the processing

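No paired analysis was possible because each group was 1 library and no test was made. Of 312 ratios of the 10 genes recomputed under the alternatives, 294 kept their sign and 264 stayed inside the interval of the reported value. Of those past 2-fold, 0 reversed. These counts include the changed UMI minimum, which leaves each ratio as it was, so those ratios agree by construction. The changes of scaling move all ratios of a class by the same amount. The 312 ratios are thus not independent checks. In fetal mature neutrophil-like cells 3 genes passed 2-fold. With each library clustered by itself 5 did, and the median went from -0.35 to -1.20. With the unnamed cluster added the median was 0.35. That cluster brought 1157293 UMIs to the Ctrl class total and 84946 to the IHG class total. The ratios of Il1b, Il1f9, Il1rn, Il1r2 and Nlrp3 all rose with it, so these moves are not independent. Both alternatives change which cells make up the class. No all-gene share or median is set beside them here, so they are not read as results about these genes. In fetal monocyte-like cells 1 gene passed 2-fold with doublets kept, against 2. In adult mature neutrophil-like cells the count was 0 as reported, 1 with median-of-ratios scaling, 2 with a minimum of 1 UMI and 2 with doublets kept. The 2 with a minimum of 1 UMI were Il1a, with 5 Ctrl and 12 IHG UMIs, and Pycard, with 3 and 5. In adult monocyte-like cells the count was 0, and 1 after thinning. No all-gene share is set beside these counts either, so they are not read as results about these genes. The causes of these moves were not tested. Median-of-ratios scaling lowered the median of all genes in fetal mature cells by about 0.22, and relative to it Il1r2 was at 1.38, Il1f9 at -1.85 and Nlrp3 at -0.96. The ratio of Casp1 in fetal monocyte-like cells was -0.11 under that scaling. In adult monocyte-like cells Il1rn was 0.32 after thinning. Clustering each library by itself gave no adult Ctrl monocyte cluster, so that alternative has no value there. Few UMIs limited Il18, Casp1, Il1rap and Pycard in adult neutrophil-like cells.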

Other observations

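The unnamed shallow cluster of the fetal libraries held the neutrophil members of the set at levels far under those of fetal mature neutrophil-like cells. Its 158 Ctrl cells had 71 UMIs of Il1b or 61.4 CPM (47.9 to 77.4), 48 of Il1f9 or 41.5 CPM (30.6 to 55.0), 48 of Il1r2 or 41.5 CPM and 29 of Nlrp3 or 25.1 CPM (16.8 to 36.0). Its 42 IHG cells had 3, 3, 9 and 2 UMIs of the same genes, too few for a comparison. A single Ctrl cell held 53.5% of the 71 Il1b UMIs, so that Ctrl level rests largely on 1 cell. Haemoglobin RNA summed to 324284 CPM in the Ctrl cells of this cluster and 70621 in its IHG cells. Haemoglobin counts toward the total by which CPM are scaled, and its part in the low levels was not tested.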
